A study of Mus musculus with 6 samples.

Results

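The genes described here encode the enzymes and transporters that modify drugs, hormones and bile products in the liver and export them, apart from the cytochromes P450: UDP-glucuronosyltransferases (Ugt), sulfotransferases (Sult), flavin monooxygenases (Fmo), alcohol and aldehyde dehydrogenases (Adh, Aldh), aldehyde oxidases (Aox), aldo-keto and carbonyl reductases (Akr, Cbr), carboxylesterases and epoxide hydrolases (Ces, Ephx) and ATP-binding cassette proteins (Abca to Abcg). They were taken by their symbols alone from the protein-coding genes of the deposited table. The rule found 55 genes among 3201 listed genes, of which 2441 were protein coding. GENCODE annotates 175 mouse protein-coding genes with such symbols, so 31.4% of the families were listed. The authors listed only genes whose expression differed between the groups compared below, so a count of genes that differed describes the list and is not evidence about the families, and the other 120 genes were not analysed here.

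RNA was measured in liver tissue of 6 mice after partial warm ischemia, with 70% of the liver clamped for 1 h, and 6 h of reperfusion. Which lobes were sampled was not given for these libraries in the sources used here. The 3 control livers are labelled IR, a treatment in place of a genotype, and the study describes these mice as *Fgf18* f/f, that is, with *Fgf18* flanked by loxP sites and intact; they are called control livers here. The 3 other livers are labelled FGF18 KNOCKOUT and came from *Fgf18* △HSC mice, called △HSC here, in which a GFAP-Cre transgene removes the gene from hepatic stellate cells, which store retinoids and turn into myofibroblasts after injury. Both groups were male, of C57BL/6 background, and had the surgery, so no liver without ischemia enters the comparison. *Fgf18* itself was not analysed here, and the genotype could therefore not be checked against the deleted gene. Ages were not given in the sources used here.

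Drug-metabolising enzymes work mostly in hepatocytes. Oxidases, reductases and hydrolases expose or create a polar group on a molecule, transferases then attach glucuronic acid or sulfate to it, and ABC transporters pump the conjugate into bile or blood. The same enzymes handle bilirubin, steroid hormones, retinoids, bile acids and fatty aldehydes, and their genes are controlled by nuclear receptors such as CAR and PPARα, by the stress factor Nrf2 and by the circadian clock. The comparison is between livers with and without *Fgf18* in stellate cells, both after injury.

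Summed over the listed genes, transcripts of these families were scarcer in △HSC livers. Values are TPM, a share of all transcripts that divides reads by gene length and so allows levels of different genes to be compared and added. The summed level of the 55 genes was 5489, 5268 and 5536 TPM in the 3 control livers and 1948, 1999 and 1728 TPM in the 3 △HSC livers. The lowest control liver lay well above the highest △HSC liver, in a sum of genes that the authors had selected on this contrast. The sum went from 5431 ± 143 to 1892 ± 144 TPM, 34.8% of the control level, a 2.87-fold difference (SD, n = 3). It made up 0.527% to 0.554% of all transcripts in control livers and 0.173% to 0.2% in △HSC livers. The listed genes as a whole also took a smaller share, 7.14% to 7.93% of all transcripts in control livers and 3.89% to 3.99% in △HSC livers. Within the listed genes the 55 made up 6.98% to 7.64% of the TPM in control livers and 4.33% to 5.03% in △HSC livers. The ranking at the top was largely kept, with 9 of the 10 most abundant members in control livers also among the 10 most abundant in △HSC livers, at lower levels. As these are values of bulk tissue, fewer hepatocytes and less of a transcript in each hepatocyte cannot be told apart.

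Of the 55 genes, 44 were lower and 11 higher in △HSC livers. Under limma, with a Benjamini-Hochberg adjusted p under 0.05 over all 3201 genes and a change beyond 1 on the log2(TPM + 0.1) scale, 43 were called lower and 7 higher. The 43 include *Ugt1a8*, for which only a bound is known. The authors had selected these 3201 genes on this same contrast. The adjusted p-values here and below are therefore descriptive and not independent evidence of a difference. Of all listed genes, 30% were called lower, 41.6% higher and 71.7% in either direction. The groups did not overlap for 54 of the 55 genes and for 96.3% of all listed genes, a list the authors had selected on this contrast. That selection was made in both directions. The direction was downward for 80% of the members, against 34.9% of all listed genes and 32.8% of the other listed protein-coding genes. These shares are not matched for level. Of the other listed protein-coding genes, 85.7% were lower between 10 and 100 TPM and 86.4% above. The median change was -1.25 (log2) over the members and 0.88 over all listed genes. Among the 44 lower genes the change ran from -2.63 to -0.99 with a median of -1.43, and 42 of them stood under 50% of their control level, without *Ugt1a8*, for which 0 reads in each △HSC liver allow a bound only. Dividing each liver by its median ratio to the listed genes moved the median of all genes by -0.88 (log2). The listed genes were mostly higher (65.1%), so this rescaling moves changes downward by construction. It could not be expected to turn a lower gene and is not an independent check of the scaling. No member changed sign under it, the median member then stood at -2.23, and the 11 higher genes lay between 0.11 and 0.92.

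Markers of the cell types of the liver give the setting of these changes. Of 14 hepatocyte markers, 4 were listed and each was called lower: *Cyp2e1* and *Glul* of the pericentral zone, *Cyp3a11*, and *Pck1* of the periportal zone. Their summed level ran from 3182 to 3389 TPM in control livers and from 986 to 1292 TPM in △HSC livers. The other 10, among them *Alb*, *Ttr* and *Apoa1*, were not listed, so a fall was not shown for most of these markers. Over all listed genes 30% were called lower and 41.6% higher. These shares are not matched for level. Of the other listed protein-coding genes, 10.9% were lower under 1 TPM and 45.8% between 1 and 10 TPM. Between 10 and 100 TPM 85.7% were lower, and above 100 TPM 86.4%. The 4 hepatocyte markers were abundant and the stellate cell markers scarce. Listed markers of stellate, endothelial and erythroid cells and of macrophages had higher means. Among 13 stellate cell markers 8 were listed, each at a higher mean and 5 called, with a sum of 2.73 to 4.05 TPM in control livers and 9.07 to 13.2 TPM in △HSC livers. For sinusoidal endothelium 4 of 10 markers were listed and called higher (18.9 to 20.7 against 41.4 to 58.9 TPM), and for macrophages 3 of 10 were listed and 2 called higher (8.38 to 10.2 against 22.7 to 32.02 TPM), with *Adgre1*, the one not called, turning from 0.82 to -0.028 (log2) when livers were rescaled as above. For cholangiocytes 5 of 7 were listed, with 1 called lower and 2 higher (28.1 to 30.5 against 50.2 to 76.8 TPM). Among 12 neutrophil markers 6 were listed, 3 called in each direction, and their sums overlapped (20.8 to 23.8 against 19.0 to 47.0 TPM). Of 9 lymphocyte markers only *Gzma* was listed, called lower (0.817 to 1.38 against 0.130 to 0.603 TPM). The 4 listed of 7 erythroid markers, all globin genes, were called higher (70.9 to 116 against 396 to 539 TPM). No listed marker was at 0 in every liver. The part of tissue composition in the results was not tested.

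**Figure D1:**
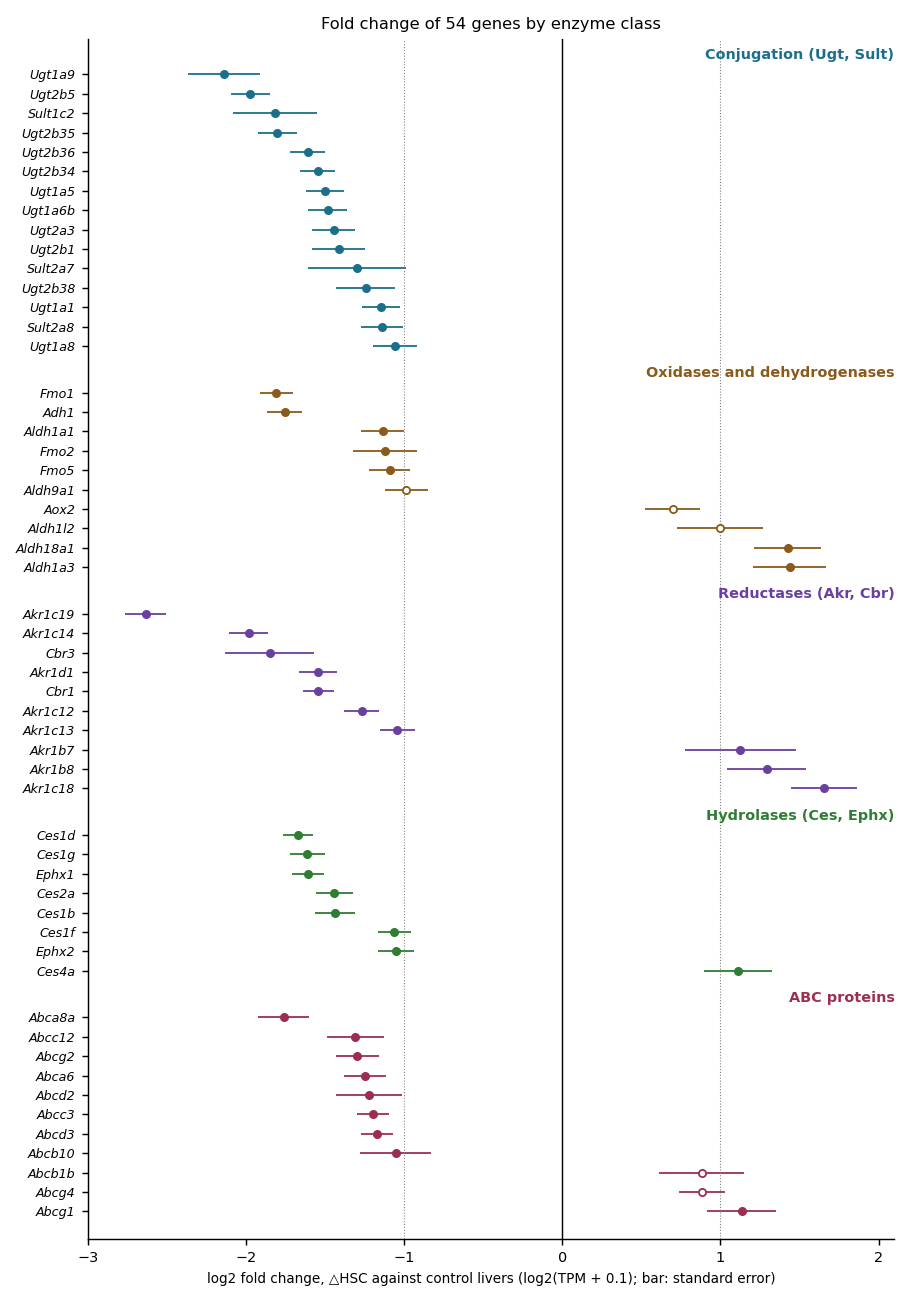
Fold change of 54 of the 55 genes, grouped by enzyme class. The x axis is the log2 fold change of △HSC against control livers on the log2(TPM + 0.1) scale, bars are standard errors from limma (3 livers a group), filled points were called and open points were not, and dotted lines mark changes of 1 in each direction. All 15 conjugation genes sit to the left of 0, *Ugt1a9* farthest at -2.14, while the other classes hold between 1 and 4 genes on the right. The points of *Ugt1a8*, *Aox2* and *Abcg4*, which had at most 3 reads in every liver of a group, depend on the pseudocount.

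Every class had a lower summed level in △HSC livers, and in no class did the groups overlap. The sums are made of genes that the authors had selected on this contrast. The groups did not overlap for 54 of the 55 genes and for 96.3% of all listed genes, so the separation of the sums is not independent evidence. Conjugation enzymes went from 1784 ± 73.8 to 589 ± 75.5 TPM, 33.04% of the control level. The sum for oxidases and dehydrogenases was 1703, 1632 and 1712 TPM in control livers and 616, 563 and 521 TPM in △HSC livers, or 33.7%. Reductases went from 409 ± 3.04 to 143 ± 11.2 TPM, 34.9% of the control level, and hydrolases from 1355 ± 45.5 to 507 ± 27.6 TPM, 37.4% of the control level. ABC proteins kept the most, going from 200.2 ± 12.2 to 86.2 ± 4.86 TPM, 43.1% of the control level (SD, n = 3 for each class). These sums are carried by a few abundant genes in each class, *Adh1* alone giving 1263 of the 1682 TPM of its class.

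**Figure D2:**
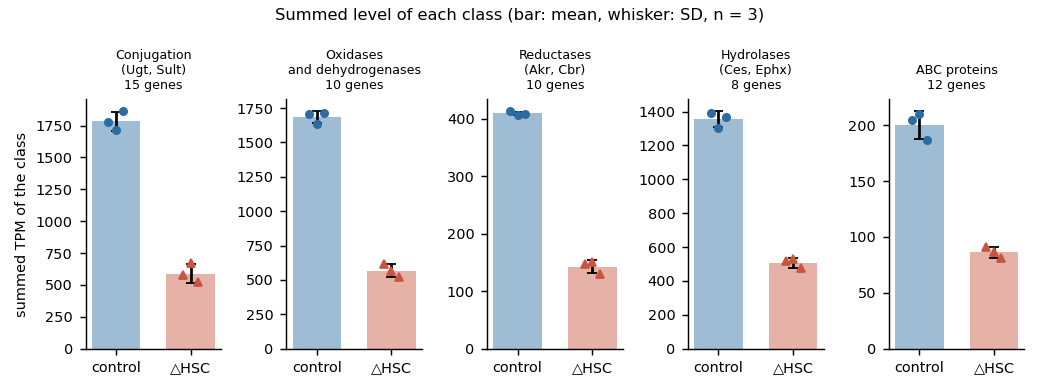
Summed TPM of each class in each liver. Bars are means, whiskers are SD (n = 3), and circles and triangles are the control and △HSC livers. In each panel the 3 △HSC livers lie under the 3 control livers, between 33.0% (conjugation) and 43.1% (ABC proteins) of the control mean. The genes summed were selected by the authors on this contrast.

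Conjugation was the one class without an exception, with 15 of 15 genes lower and 15 called, against 30% of all listed genes called lower. Its median control level was 81.0 TPM, and at such levels most other listed protein-coding genes were lower too, as given below. The call of *Ugt1a8* rests on at most 6 reads a liver and depends on the pseudocount. A pseudocount of 1 left 13 of the 15 called. Ugt2 enzymes, which glucuronidate steroids, bile acids and many drugs, are encoded side by side on mouse chromosome 5, and 7 of them were listed. *Ugt2b5* (GRCm38 chr5:87124960-87140318) was the most abundant, at 559, 535 and 582 TPM in control livers and 142, 163 and 124 TPM in △HSC livers. The highest △HSC liver held less than the lowest control liver by a wide margin, and the mean went from 559 ± 23.6 to 143 ± 19.1 TPM (log2 -1.97 ± 0.12 (SE), adjusted p = 1.6e-05, limma with Benjamini-Hochberg adjustment, as for each adjusted p here). *Ugt2b35* read 92.5, 92.1 and 99.3 TPM in control livers and 26.1, 31.3 and 24.2 TPM in △HSC livers, again without overlap (log2 -1.80 ± 0.12 (SE), adjusted p = 1.8e-05). Most of the remaining members were abundant too. *Ugt2b36* went from 293 ± 7.53 to 96.3 ± 10.2 TPM (-1.61 log2), *Ugt2b1* from 240.3 ± 33.5 to 90.6 ± 18.4 TPM (-1.42), *Ugt2b34* from 137 ± 6.50 to 46.9 ± 4.80 TPM (-1.55) and *Ugt2a3* from 114 ± 3.57 to 42.2 ± 7.02 TPM (-1.45). *Ugt2b38* was the scarcest of the 7, at 18.6 and 7.85 TPM (-1.24), and 37.4% of its 50-base windows also occur in other genes, chiefly *Ugt2b5*, so reads may be divided between the pair. Summed over the 7, Ugt2 transcripts stood at 31.2% of the control level.

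Ugt1a enzymes share their last exons and differ in the first, which selects the substrate. *Ugt1a1* is the enzyme that glucuronidates bilirubin. It read 84.4, 85.8 and 72.9 TPM in control livers and 37.8, 39.1 and 32.8 TPM in △HSC livers, 45.1% of the control mean (log2 -1.15 ± 0.12 (SE), adjusted p = 8.5e-05). *Ugt1a9*, whose substrates include phenols and fatty acids, showed the largest change of the class on the log2(TPM + 0.1) scale. Its values were 39.2, 36.2 and 24.8 TPM in control livers and 9.49, 7.32 and 5.75 TPM in △HSC livers, 22.5% of the control mean (log2 -2.14 ± 0.23 (SE), adjusted p = 9.2e-05). Control liver 3 was the low one of its group and still lay above every △HSC liver. *Ugt1a6b* (from 28.4 ± 2.02 to 10.1 ± 1.04 TPM, -1.49 log2) and *Ugt1a5* (from 19.2 ± 1.45 to 6.74 ± 0.539 TPM, -1.50) were called lower as well. *Ugt1a8* had 6, 5 and 5 reads in control livers and 0 in each △HSC liver, which with a floor of 3 reads per library is at least 1.47-fold lower, and setting this gene to its bound leaves the medians above as they are. Between 58.9% and 60.6% of the joined exon sequence of these 5 genes lies in 8 other annotated genes of the locus on the same strand, so reads from that stretch cannot be assigned to 1 gene, and how they were counted was not given in the sources used here. Of the Ugt1a genes, *Ugt1a6b* was the least distinct, and 79.8% of the 50-base windows of *Ugt1a6b* occur in other genes.

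The 3 listed sulfotransferases were all called lower. *Sult2a8*, which sulfates bile acids in mouse liver, was the abundant one and went from 162 ± 18.9 to 73.4 ± 8.76 TPM (log2 -1.14 ± 0.13 (SE), adjusted p = 1.4e-04). Its neighbour *Sult2a7* was scarce, at 0.614, 0.527 and 0.739 TPM against 0.113, 0.358 and 0.158 TPM, from 3 to 21 reads a liver (-1.30 log2). *Sult1c2* read 3.80, 2.31 and 2.19 TPM in control livers and 0.940, 0.603 and 0.575 TPM in △HSC livers. Control liver 1 stood above its group and the groups did not overlap (log2 -1.82 ± 0.27 (SE), adjusted p = 4.2e-04).

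Oxidases and dehydrogenases were the most divided class, with 6 genes lower and 4 higher, 5 and 2 of them called. Over all listed genes 30% were called lower and 41.6% higher. *Adh1* (chr3:138260991-138290698), the main hepatic alcohol dehydrogenase, which also oxidises retinol, was the most abundant of all 55 genes. It stood at 1292, 1208 and 1288 TPM in control livers and at 412, 360.1 and 351 TPM in △HSC livers. The △HSC mean was 29.6% of the control mean, and the change was log2 -1.76 ± 0.11 (SE), adjusted p = 1.6e-05. *Fmo1*, a flavin monooxygenase of amines and sulfides, read 38.2, 38.2 and 37.3 TPM and 11.6, 10.7 and 9.96 TPM in the respective groups (log2 -1.81 ± 0.11 (SE), adjusted p = 1.3e-05). *Fmo5* went from 107, 112 and 99.8 TPM to 56.7, 50.3 and 42.9 TPM (-1.09 log2) and the scarcer *Fmo2* from 2.66 ± 0.430 to 1.17 ± 0.249 TPM (-1.12). *Aldh1a1*, which makes retinoic acid from retinal, measured 171, 176 and 209 TPM in control livers and 83.6, 96.03 and 73.7 TPM in △HSC livers (log2 -1.14 ± 0.14 (SE), adjusted p = 1.5e-04). *Aldh9a1*, an enzyme of carnitine synthesis that oxidises aminoaldehydes, fell short of the limit on the fold change. Its values were 92.8, 94.7 and 73.5 TPM against 48.1, 42.8 and 40.1 TPM, with no overlap (log2 -0.99 ± 0.13 (SE), adjusted p = 3.0e-04).

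The 4 higher genes of the class were all scarce. *Aldh18a1*, the first enzyme of proline and ornithine synthesis, read 0.422, 0.364 and 0.464 TPM in control livers and 1.33, 1.03 and 1.54 TPM in △HSC livers (log2 1.42 ± 0.21 (SE), adjusted p = 4.3e-04). *Aldh1a3*, another retinoic acid-forming enzyme, rose while its abundant relative *Aldh1a1* fell. It measured 0.105, 0.0972 and 0.204 TPM against 0.553, 0.510 and 0.514 TPM, from 10 to 53 reads a liver (log2 1.44 ± 0.23 (SE), adjusted p = 6.5e-04). *Aldh1l2*, a mitochondrial enzyme of folate metabolism, was not called at 0.179, 0.227 and 0.141 TPM against 0.302, 0.628 and 0.498 TPM (log2 0.998 ± 0.27 (SE), adjusted p = 0.0076). *Aox2* had 2, 1 and 3 reads in the control group and 13, 5 and 12 in the △HSC group, at least 3.78-fold higher with a floor of 3 reads per library, and was not called either (adjusted p = 0.0053, limma).

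Reductases held both the largest fall and the largest rise of the 55 genes on the log2(TPM + 0.1) scale, within 1 cluster of Akr1c genes. As ratios of means, genes known from few reads ranked further out, *Abcc12* (14.6% of its control mean) and *Ugt1a8* among the lower genes and *Abcg4* and *Aox2* among the higher ones. Akr1c enzymes reduce ketosteroids, prostaglandins and bile acid intermediates. *Akr1c19* (chr13:4228700-4252843) read 22.2, 21.9 and 22.2 TPM in control livers and 4.03, 3.28 and 3.17 TPM in △HSC livers. The 3 control livers had a spread of 0.618% (coefficient of variation), and the △HSC mean was 15.8% of theirs (log2 -2.63 ± 0.13 (SE), adjusted p = 9.0e-06). *Akr1c14*, a hydroxysteroid dehydrogenase that inactivates androgens and progestins, and the most abundant gene of the class, measured 134, 135 and 134 TPM against 38.4, 34.9 and 29.1 TPM (log2 -1.99 ± 0.12 (SE), adjusted p = 1.6e-05). *Akr1c12* went from 63.1 ± 2.40 to 26.2 ± 2.43 TPM (-1.27) and *Akr1c13* from 58.4 ± 1.37 to 28.4 ± 2.82 TPM (-1.04). This pair shares sequence, with 28.6% and 24.2% of their 50-base windows found in other genes, mostly each other.

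*Akr1c18*, which breaks down progesterone, was the exception in the cluster. It rose from 0.155, 0.149 and 0.138 TPM to 0.759, 0.542 and 0.754 TPM (log2 1.66 ± 0.21 (SE), adjusted p = 1.9e-04), on 3 to 19 reads a liver. *Akr1d1*, the steroid reductase of bile acid synthesis, fell from 63.5, 65.3 and 62.3 TPM to 23.7, 23.1 and 18.7 TPM (log2 -1.55 ± 0.12 (SE), adjusted p = 3.0e-05). Of the carbonyl reductases, *Cbr1* was the abundant one and went from 62.8 ± 1.23 to 21.5 ± 1.26 TPM (-1.54), while *Cbr3* read 1.63, 2.19 and 2.18 TPM in control livers and 0.618, 0.280 and 0.605 TPM in △HSC livers, with △HSC liver 2 the lowest (log2 -1.85 ± 0.28 (SE), adjusted p = 5.1e-04). The Akr1b pair, aldose reductase relatives that reduce lipid aldehydes, was called higher. *Akr1b8* read 1.10, 1.41 and 1.63 TPM against 2.41, 4.28 and 4.08 TPM without overlap (log2 1.29 ± 0.25 (SE), adjusted p = 0.0016). *Akr1b7* was the one gene of the 55 whose groups overlapped. Its values were 0.846, 0.736 and 1.34 TPM in control livers and 1.28, 3.32 and 2.41 TPM in △HSC livers, △HSC liver 1 lying under control liver 3 (log2 1.12 ± 0.35 (SE), adjusted p = 0.014), and without control liver 2 or △HSC liver 2 it was no longer called (log2 0.96 and 0.83).

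Hydrolases fell in 7 of 8 cases, each called, against 30% of all listed genes called lower, a share not matched for level. Carboxylesterases cleave esters of drugs and of stored lipids, and *Ces1d* (chr8:93166068-93197838) is the triacylglycerol hydrolase of hepatocytes. It read 350.1, 325 and 337 TPM in control livers and 109, 104 and 104 TPM in △HSC livers. The 3 △HSC livers lay close together and far below the control livers (log2 -1.67 ± 0.10 (SE), adjusted p = 1.3e-05). *Ces1g*, a carboxylesterase of hepatic lipid metabolism, measured 112, 106 and 120.5 TPM against 34.5, 39.9 and 35.8 TPM (log2 -1.61 ± 0.11 (SE), adjusted p = 1.8e-05). *Ces1b* went from 55.4 ± 6.61 to 20.3 ± 1.68 TPM (-1.44) and *Ces1f* from 130.4 ± 4.99 to 62.4 ± 5.09 TPM (-1.06). *Ces2a*, the one listed member of its branch among 7 annotated, read 173, 171 and 149.9 TPM in control livers and 58.98, 67.3 and 55.1 TPM in △HSC livers (log2 -1.44 ± 0.12 (SE), adjusted p = 3.5e-05). Both epoxide hydrolases were lower. Microsomal *Ephx1*, an enzyme of drug epoxides, stood at 329, 294 and 298 TPM against 104, 102 and 95.4 TPM (log2 -1.61 ± 0.10 (SE), adjusted p = 1.6e-05), and soluble *Ephx2*, which opens fatty acid epoxides, went from 248 ± 18.4 to 119 ± 9.86 TPM (-1.05). *Ces4a* was the exception, at 0.522, 0.424 and 0.456 TPM against 1.45, 1.02 and 0.956 TPM (log2 1.11 ± 0.21 (SE), adjusted p = 0.0016). It was not called without △HSC liver 1 (log2 0.94).

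**Figure D3:**
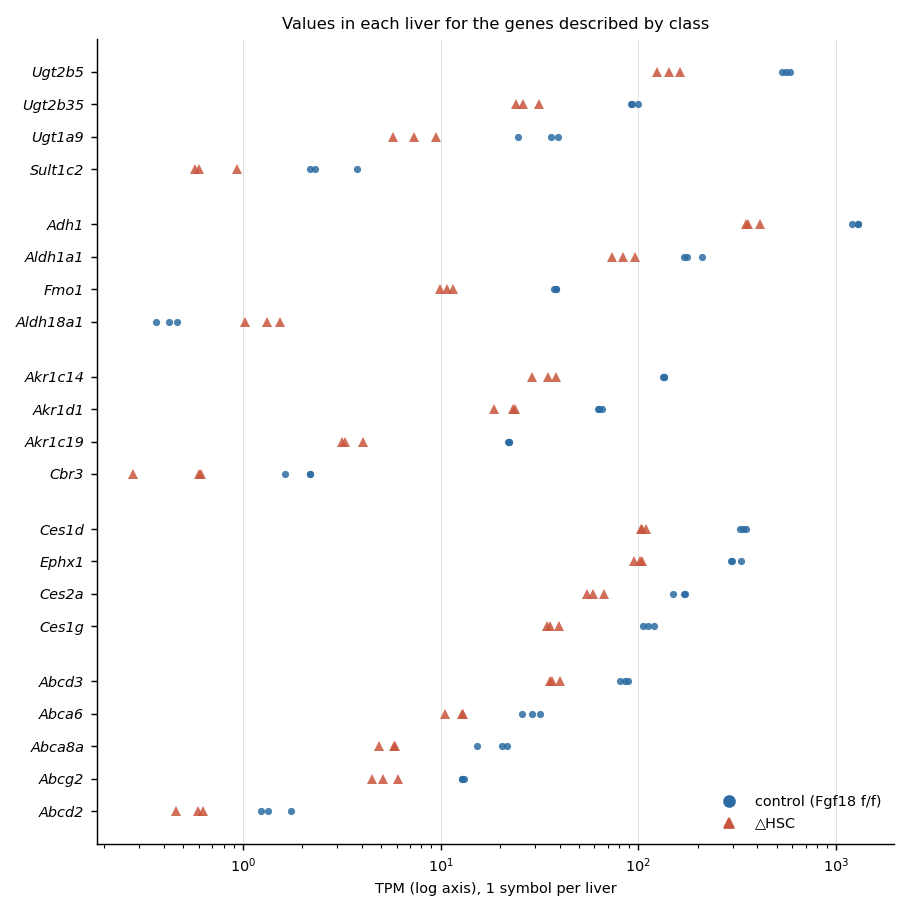
TPM in each of the 6 livers, on a log axis, for 4 genes of each class and for the most abundant gene of each class. The 4 had the largest called changes among genes that reached 1 TPM as a group mean and whose groups did not overlap. Circles are control livers and triangles are △HSC livers. The 3 triangles lie to the left of the 3 circles except for *Aldh18a1*. For the 4 genes of each class the separation of the groups was a condition of the choice. *Adh1* and *Ugt2b5* are the most abundant genes of their classes.

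ABC proteins included 9 lower and 3 higher genes, and those that were lower differ in what they carry. *Abcc3* exports conjugates from hepatocytes into blood. It went from 41.04 ± 2.16 to 17.8 ± 0.289 TPM (log2 -1.20 ± 0.10 (SE), adjusted p = 3.7e-05). *Abcg2* exports sulfate conjugates and many drugs into bile, and its values were 12.9, 13.2 and 12.9 TPM in control livers and 5.14, 6.12 and 4.53 TPM in △HSC livers (log2 -1.30 ± 0.14 (SE), adjusted p = 9.1e-05). The peroxisomal Abcd proteins import fatty acyl-CoA and are not drug pumps. *Abcd3*, the most abundant ABC gene listed, read 85.1, 88.5 and 80.7 TPM against 40.2, 36.6 and 35.8 TPM (log2 -1.17 ± 0.10 (SE), adjusted p = 4.4e-05). *Abcd2* measured 1.34, 1.24 and 1.76 TPM against 0.462, 0.592 and 0.631 TPM (log2 -1.22 ± 0.21 (SE), adjusted p = 8.7e-04). *Abca8a*, a lipid transporter, stood at 20.5, 21.7 and 15.3 TPM in control livers and 5.82, 5.91 and 4.88 TPM in △HSC livers, the largest change of the class on the log2(TPM + 0.1) scale (log2 -1.76 ± 0.16 (SE), adjusted p = 5.4e-05). Its neighbour *Abca6* read 28.9, 31.99 and 25.97 TPM against 13.00, 12.8 and 10.6 TPM (log2 -1.25 ± 0.13 (SE), adjusted p = 9.3e-05). *Abcb10*, a mitochondrial transporter, went from 5.35 ± 0.940 to 2.56 ± 0.694 TPM (-1.05), and *Abcc12* was barely present, at 0.232 and 0.0338 TPM with 2 to 6 reads in each △HSC liver (-1.31), a larger ratio than that of *Abca8a* on far fewer reads.

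On the higher side, *Abcg1*, which exports cholesterol from macrophages and other cells, was called. It read 0.836, 0.673 and 0.737 TPM in control livers and 2.004, 1.30 and 2.06 TPM in △HSC livers (log2 1.13 ± 0.22 (SE), adjusted p = 0.0015). *Abcb1b*, a P-glycoprotein that pumps drugs out of cells, measured 0.150, 0.180 and 0.341 TPM against 0.398, 0.565 and 0.481 TPM and was not called (log2 0.88 ± 0.27 (SE), adjusted p = 0.013), and 11.6% of its 50-base windows occur in other genes, chiefly *Abcb1a*. Without control liver 3, the highest of its group, its change was 1.13 and called. *Abcg4* had 0, 0 and 1 reads in control livers and 11, 6 and 10 in △HSC livers, at least 3.46-fold higher with the floor of 3 reads per library and not called (adjusted p = 7.1e-04, limma). Of the 50 annotated ABC genes 38 were not analysed here.

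The direction of change followed the level of the gene. All 34 members with a mean of at least 10 TPM over the 6 livers were lower. Between 1 and 10 TPM 7 of 10 were lower, and under 1 TPM 3 of 11. The other listed protein-coding genes had the same order, with 10.9% lower of the 1302 genes under 1 TPM, 45.8% of the 723 between 1 and 10 TPM, 85.7% of the 280 between 10 and 100 TPM and 86.4% of the 81 above. In the upper bands the members' median change was -1.47 between 10 and 100 TPM and -1.53 above, against -1.17 and -1.20 for the other genes. None of the 11 higher members exceeded 1.38 TPM as a mean in control livers or 3.59 TPM in △HSC livers, whereas the 44 lower ones had a median control level of 63.0 TPM. Since the table was selected on the contrast, these shares describe the listed genes only.

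**Figure D4:**
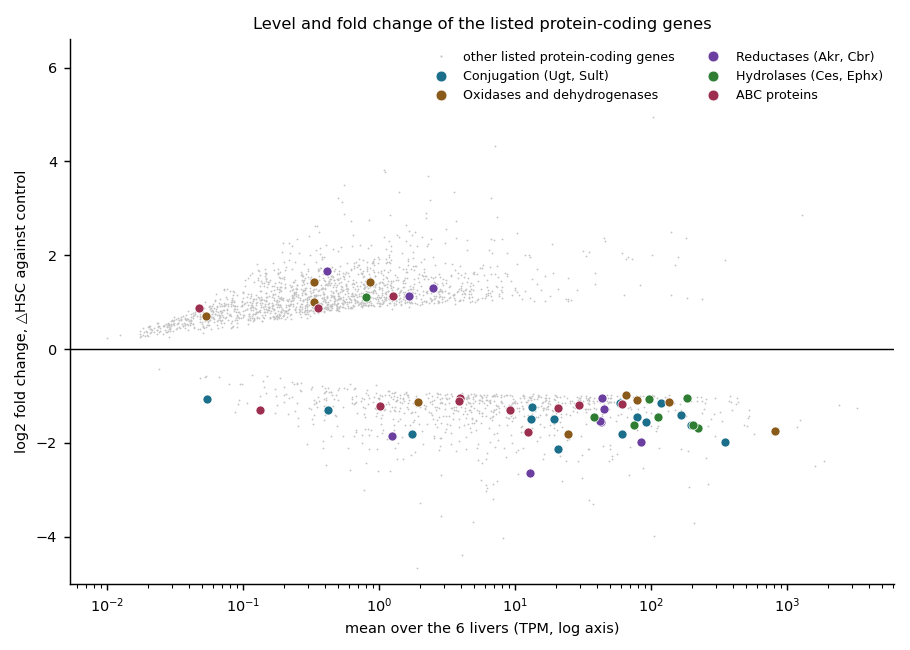
Log2 fold change on the log2(TPM + 0.1) scale against the mean level over the 6 livers (TPM, log axis) for the listed protein-coding genes, with the 55 members coloured by class and the other 2386 genes in grey. The empty band around 0 holds no gene, since the authors listed only genes that differed. The 34 members at 10 TPM or more lie below 0, and the members above 0 lie at low levels.

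Of the 55 genes, 33 lie in 10 groups whose members are less than 1000000 bases apart, and in 8 of these groups every listed member changed in the same direction. With 44 of the 55 genes lower, agreement within small groups is frequent in any case, and shared control of neighbours was not tested. The 5 Ugt1a genes (GRCm38 chr1:88070800-88219004) and the 7 Ugt2 genes (chr5:86889767-87424203) were all lower, as were the 4 Ces1 genes (chr8:93056728-93337308). The Akr1c group (chr13:4049011-4279433) held 4 lower genes and *Akr1c18*, and *Ces2a* and the higher *Ces4a*, also on chromosome 8, made up the other mixed group. The size of the change differed within clusters. Ratios of neighbouring genes inside the same liver do not depend on the scaling of that liver. The ratio of *Ugt1a9* to *Ugt1a1* was 0.465, 0.422 and 0.340 in control livers and 0.251, 0.187 and 0.175 in △HSC livers. *Akr1c19* stood at 0.370, 0.384 and 0.381 of *Akr1c13* in control livers and at 0.146, 0.104 and 0.122 in △HSC livers. *Ces1d* to *Ces1f* went from 2.60, 2.60 and 2.57 to 1.77, 1.53 and 1.80, and *Ugt2b5* to *Ugt2b38* from 32.4, 32.2 and 26.7 to 16.4, 18.2 and 20.9. None of the 4 ratios overlapped between groups. The pairs were chosen as the largest and the smallest fall (log2) of each cluster among lower genes with a control mean of at least 1 TPM, which leaves out *Ugt1a8*, so the direction of the ratios is a description of that choice, and no test was made.

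**Figure D5:**
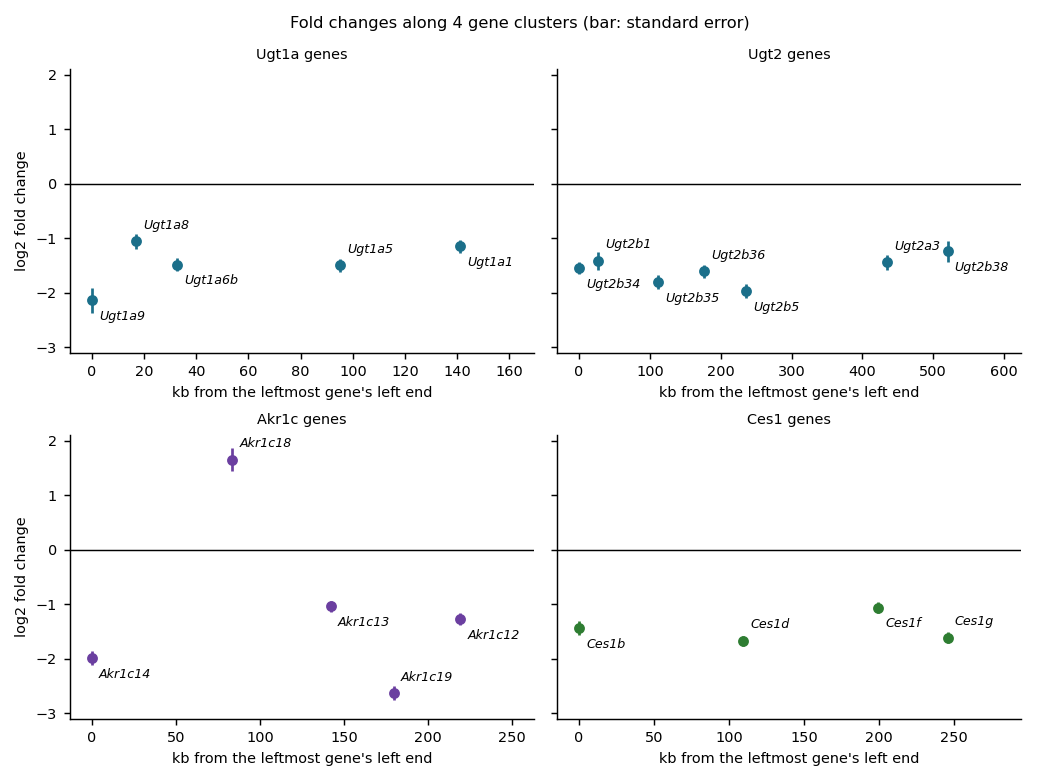
Log2 fold change (bars: standard error, 3 livers a group) of the listed genes of 4 clusters against their distance from the left end of the leftmost listed gene, in kb. All 16 genes of the Ugt1a, Ugt2 and Ces1 clusters lie below 0, and in the Akr1c cluster *Akr1c18*, at 1.66, stands above 0 between neighbours at -1.99 and -1.04.

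The median coefficient of variation over the 55 genes was 9.18% in control livers and 13.4% in △HSC livers. Over all listed genes it was 20.1% and 21.7%, a comparison not matched for level. The authors' selection by p-value on this contrast favours genes with a small spread within groups, so these values describe the listed genes only. △HSC liver 3 had the lowest value of its group in 34 of the 44 lower genes and △HSC liver 2 the highest in 22. Reads recovered from the values numbered 270409 to 397794 on the 55 genes in control livers and 85993 to 114328 in △HSC livers. Every liver had at least 10 reads on 48 of the genes. The other 7 are the least precise, and total library sizes were not given in the sources used here, so no counting interval was computed.

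Of 49 genes outside the symbol rule for enzymes that feed or complete these reactions, 15 were listed and 34 were not analysed here. The 15 were lower and 14 of them called, against 30% of all listed genes called lower, with a median change of -1.28. That share is not matched for level, and most of the 15 lay above 10 TPM. Of the other listed protein-coding genes, 85.7% were lower between 10 and 100 TPM and 86.4% above, with median changes of -1.17 and -1.20. *Por*, the reductase that passes electrons to cytochromes P450, read 150.2, 150.5 and 131 TPM in control livers and 51.6, 60.02 and 55.4 TPM in △HSC livers (log2 -1.37 ± 0.11 (SE), adjusted p = 3.5e-05). *Ugp2* makes the UDP-glucose from which the glucuronic acid donor is built, and went from 171, 176 and 155 TPM to 53.7, 54.1 and 47.97 TPM (log2 -1.69). *Papss2* supplies activated sulfate to the sulfotransferases, and went from 50.6, 48.8 and 46.6 TPM to 21.2, 19.2 and 19.7 TPM (log2 -1.28). *Inmt*, an amine N-methyltransferase, had the largest change of the list at -2.88, and the quinone reductase *Nqo1*, a target of Nrf2, stood at 12.4, 11.8 and 15.6 TPM against 3.38, 5.44 and 4.07 TPM (log2 -1.62). *Upp2* (-2.75), *Acsm5* (-1.92), *Dpys* (-1.28), *Acsm3* (-1.25), *Glyat* (-1.15), *Acsm1* (-1.11), *Slc27a5* (-1.10), *Dpyd* (-1.09) and *Bche* (-1.07) were called lower too, and *Hsd11b1* lay at -0.99, inside the limit.

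Of 16 solute carriers, most of which bring bile acids and drugs into hepatocytes, 9 were listed and 7 were not analysed here. Of the 9, 8 were lower and 1 higher, and 6 were called lower, against 30% of all listed genes called lower and 71.7% called in either direction. Those shares are not matched for level. *Slc10a1*, the sodium-dependent bile acid carrier, read 416, 391 and 403 TPM in control livers and 157, 139 and 135 TPM in △HSC livers (log2 -1.49). *Slco1b2*, an organic anion carrier, went from 128, 132 and 142 TPM to 43.5, 50.9 and 43.4 TPM (log2 -1.54). The carnitine carrier *Slc22a5* (-1.85), *Slco1a4* (-1.67), *Slc51b* (-1.29) and *Slc22a3* (-1.02) were called lower, and *Slc47a1*, *Slco1a1* and *Slc15a1* were not called.

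Among 26 transcription factors known to control drug metabolism 9 were listed, with 6 called lower and 1 higher. Over all listed genes 30% were called lower, 41.6% higher and 71.7% in either direction. These shares also apply to the clock and sex-biased genes below and are not matched for level. *Nr1i3*, which encodes the xenobiotic sensor CAR, read 22.8, 22.5 and 26.2 TPM in control livers and 7.35, 5.37 and 6.53 TPM in △HSC livers (log2 -1.88 ± 0.14 (SE), adjusted p = 2.7e-05). *Ppara*, the fatty acid sensor, went from 20.02, 19.4 and 19.6 TPM to 8.01, 8.16 and 7.89 TPM (-1.28 log2). The PAR bZIP factors, which are outputs of the circadian clock and bind the D-box, were lower. *Dbp* went from 13.1, 13.1 and 12.4 TPM to 1.63, 1.97 and 1.69 TPM (-2.81), *Tef* changed by -2.02 and *Hlf* by -1.37. *Cebpb* was called lower (-1.34), while *Cebpa* (-0.99) and *Esrra* (-0.99) were inside the limit. *Nr0b2*, which encodes the repressor SHP, was the higher one, from 1.19, 1.82 and 2.21 TPM to 16.8, 8.56 and 13.4 TPM (2.81). The genes of Nrf2 and KEAP1 were not analysed here. Of 16 clock genes, which include the 3 PAR bZIP factors, 10 were listed, 8 called lower and 2 higher. *Per2* (-1.72), *Per3* (-1.83), *Cry2* (-1.77), *Ciart* (-1.25) and *Bhlhe41* (-1.30) were lower, and the activators *Npas2* (3.77) and *Arntl* (1.11) higher. The hour of sampling was not given in the sources used here. Of 24 sex-biased or growth hormone-dependent genes 5 were listed, 3 called lower (*Acot3*, *Cyp2a4* and *Cyp2d9*) and 1 higher (*Elovl3*). The part of any of these factors in the members' values was not tested.

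Promoter sequence was searched for the D-box of the PAR bZIP factors, the E-box of the clock activators and the element of Nrf2. Elements of the other factors above, such as CAR and PPARα, were not searched. RefSeq windows of GRCm38.p6, from 250 bases before to 50 after a start, were found for 41 of the 55 genes, in 48 windows. The D-box TTATGTAA, searched on both strands, occurred in 5 of the 48 windows (10.4%) and in 0.938% of all 32851 promoter windows. The 5 windows belong to 4 genes, since both windows of *Ces1b* hold the same site. The antioxidant response element core TGACNNNGC, the element of Nrf2, occurred in 2 windows (4.17%, *Akr1c19* and *Aldh9a1*) against 12.4% of all windows. The E-box CACGTG of the clock activators was in 3 (6.25%, *Abca8a*, *Adh1* and *Aldh18a1*) against 7.15%. The upstream 250 bases of the 4 genes with a D-box are shown because the factors that bind it, *Dbp*, *Tef* and *Hlf*, were lower in the same livers. They read 5′ to 3′ on the gene's strand with the D-box, or its reverse complement, in capitals: *Ces1b* (chr8:93079941-93080190, minus strand), *Ces1g* (chr8:93337210-93337459, minus), *Ugt2b1* (chr5:86926504-86926753, minus) and *Akr1c18* (chr13:4150647-4150896, minus).
Ces1b: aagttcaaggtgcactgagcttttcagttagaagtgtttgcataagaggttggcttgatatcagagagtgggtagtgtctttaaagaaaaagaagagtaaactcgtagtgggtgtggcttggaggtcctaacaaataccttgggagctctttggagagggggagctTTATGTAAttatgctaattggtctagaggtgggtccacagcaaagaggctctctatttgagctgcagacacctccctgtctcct
Ces1g: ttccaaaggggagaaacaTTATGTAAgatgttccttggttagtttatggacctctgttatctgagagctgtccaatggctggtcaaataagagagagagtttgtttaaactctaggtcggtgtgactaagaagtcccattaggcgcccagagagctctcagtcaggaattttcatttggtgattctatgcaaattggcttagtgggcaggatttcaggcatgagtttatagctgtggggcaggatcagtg
Ugt2b1: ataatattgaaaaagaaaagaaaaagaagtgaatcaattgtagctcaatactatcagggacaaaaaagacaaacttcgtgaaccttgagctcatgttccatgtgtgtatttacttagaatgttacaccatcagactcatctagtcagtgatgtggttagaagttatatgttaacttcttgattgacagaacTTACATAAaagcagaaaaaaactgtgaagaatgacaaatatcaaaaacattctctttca
Akr1c18: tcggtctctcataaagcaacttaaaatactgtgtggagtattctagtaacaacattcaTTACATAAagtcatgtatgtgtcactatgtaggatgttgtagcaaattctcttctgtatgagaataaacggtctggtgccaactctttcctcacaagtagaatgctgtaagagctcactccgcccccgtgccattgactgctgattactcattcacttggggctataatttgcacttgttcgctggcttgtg
Counted from the start, with bases before it negative, the D-box lies from -84 to -77 in *Ces1b*, from -232 to -225 in *Ces1g*, from -59 to -52 in *Ugt2b1* and from -192 to -185 in *Akr1c18*. The first 3 genes were called lower (log2 -1.44, -1.61 and -1.42) and *Akr1c18* was called higher (1.66). The 4 genes with the motif thus did not all change in the same direction.

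For the Nrf2 element the upstream window of *Aldh9a1* (chr1:167349741-167349990, plus strand) is shown, with the core in capitals.
Aldh9a1: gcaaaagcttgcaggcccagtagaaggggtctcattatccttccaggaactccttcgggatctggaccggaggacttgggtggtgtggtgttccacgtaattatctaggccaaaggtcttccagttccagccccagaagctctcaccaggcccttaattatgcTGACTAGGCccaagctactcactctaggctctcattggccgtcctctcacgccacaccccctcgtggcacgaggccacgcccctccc
It lies from -87 to -79, and *Aldh9a1* was the one lower member that was not called (log2 -0.99). In *Akr1c19*, whose change of -2.63 was described above, the core lies after the start, from 7 to 15. A match marks letters in a window and not a bound site, and elements farther from the start were not searched.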

How the data were processed

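Liver RNA of 3 control and 3 △HSC mice, described by the study as separate animals, was sequenced as stranded mRNA libraries. Per the study's methods and the submitters' processing notes, reads were trimmed with cutadapt 2.5, aligned to GRCm38 with HISAT2 2.1.0, counted per gene with featureCounts 1.6.3 and compared with DESeq2. The authors deposited 1 table of 3201 genes with a TPM value per liver, their own log2 fold change, p-value, adjusted p-value and a mark of direction; those columns were not used for results. The unit was inferred: each deposited value times exon length (GENCODE, 3196 genes) is a whole multiple of a per-liver constant for 92.2% to 93.1% of values (under 5000 reads, tolerance 0.02 reads), and 1000000 over that constant is not whole, which fits TPM and not FPKM. The authors kept genes with an absolute log2 fold change of at least 1 and an unadjusted p-value under 0.05.

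Groups were compared with limma 3.58.1 (R 4.3.3, Python 3.11.15; lmFit, eBayes with trend) on log2(TPM + 0.1), which understates changes of low genes, with no filter. Calls needed an adjusted p under 0.05 (Benjamini-Hochberg, 3201 genes) and an absolute change above 1. Values in every liver are given for 4 genes per class, the most abundant gene, those against the direction of their class and those not called. The 4 had the largest called change among genes reaching 1 TPM as a group mean and whose groups did not overlap. Values of 1 gene, counted among the 55, are not reported here. Genes outside the rule come from lists. The members and the lists were chosen with earlier results of these data known. The fit was also run on simulated data. A far smaller share of genes changed there than in this list, so that run does not test the calls given here. Alternatives covered the pseudocount, a level filter, scaling, trend, gene type, fold limit, adjustment, a replicate block, leaving out each liver, and, chosen after seeing the data, limma-voom on reads recovered from TPM for 2933 genes. Exon overlap and 50-base windows shared with other GENCODE transcripts were counted for each member. With 3 against 3 livers an exact permutation test cannot go below p = 0.1, so none is given.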

Additional observations from a re-analysis of the deposited data

How the results depend on the processing

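Limits: the table holds selected genes, so nothing is known of family members that did not differ, depth is known only from recovered reads, and 7 of the 55 genes had under 10 reads in some liver. No member changed sign under any alternative. Members called lower were 43, and 36 to 44 under the alternatives (36 with a pseudocount of 1, 39 of 50 genes with limma-voom on recovered reads). Members called higher were 7 and depended on the scale: 0 with a pseudocount of 1, 11 with 0.01, 3 with a mean of at least 1 TPM, 0 after rescaling by the median ratio and 11 with no limit on the fold change. In the same order, oxidases and dehydrogenases called higher were 0, 4, 0, 0 and 4, and 4 with limma-voom. Conjugation enzymes called lower were 13 with a pseudocount of 1 and 13 with a mean of at least 1 TPM. Reductases called higher were 0 with a pseudocount of 1 and 0 after rescaling. Hydrolases called higher were 0 with a pseudocount of 1, 0 with a mean of at least 1 TPM and 0 after rescaling. ABC proteins called lower were 5 with a pseudocount of 1, and called higher 0 with a pseudocount of 1, 3 with 0.01, 0 after rescaling, 3 with no fold limit and 2 with limma-voom. Over all listed genes a pseudocount of 1 gave 566 lower and 266 higher, a mean of at least 1 TPM 522 higher, rescaling 281 higher and no fold limit 2005 higher. A pseudocount of 1 shrinks changes of scarce genes by construction, and a level filter removes them. Rescaling by the median ratio to a list that was mostly higher moves changes downward by construction.

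Leaving out 1 liver at a time gave 39 to 44 members lower and 6 to 8 higher. Oxidases and dehydrogenases called lower ranged from 3 (without △HSC liver 3) to 6, hydrolases called higher from 0 (without △HSC liver 1) to 1 and ABC proteins called higher from 1 to 2 (without control liver 3). *Aldh9a1* was called without control liver 3 (-1.10) or △HSC liver 1 (-1.06), and *Aldh1l2* without control liver 2 (1.11) or △HSC liver 1 (1.24). Livers with the same number in both groups did not deviate together (correlations 0.06, 0.01 and 0.03 over listed genes), so the numbers were not taken to pair them. With a replicate block the members called were 43 lower and 7 higher, and over all genes 963 lower and 1337 higher.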
